A study of Mus musculus with 16 samples.

Results

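*Fscn1*, *Ccl22*, *Ccl17*, *Il12b*, *Cd40*, *Il4i1* and *Cacnb3* are genes known to be raised when dendritic cells mature. These 7 of the 24495 gene symbols in the deposited tables were chosen by name, with earlier results of these data known. Rows that share a symbol were summed. The data are single-cell RNA counts of CD45+ leukocytes sorted from MC38 tumors, a transplanted mouse colon carcinoma, and from the spleens of the same groups of mice. The animals were female 8-week-old *Aire*+/+ and *Aire*-/- littermates on a C57BL/6 background, and *Aire*-/- mice lack the regulator that lets the thymus display tissue antigens. They received anti-PD1 or an isotype control antibody (rat IgG2a) at 5 mg/kg between days 0 and 14, and cells were taken on day 19. Each tumor library was made from 4 to 6 mice whose tumors were combined, and spleens were combined too. Each of the 8 libraries is thus 1 pool, with 1 library per genotype, treatment and tissue, so no difference between conditions has a replicate check.

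Immature dendritic cells take up antigen in tissue. On maturation they present it, move towards lymph nodes and produce signals for T cells. In this program fascin, encoded by *Fscn1*, bundles actin in cell extensions, CCL22 and CCL17 attract cells that carry CCR4, and *Il12b* encodes the p40 chain shared by IL-12 and IL-23. CD40 receives the CD40 ligand of T cells, IL4I1 is a secreted oxidase of aromatic amino acids, and *Cacnb3* encodes a beta subunit of voltage-gated calcium channels.

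The tumor libraries held 2930 cells for isotype-treated *Aire*+/+ mice, 2208 for anti-PD1-treated *Aire*+/+ mice, 1856 for isotype-treated *Aire*-/- mice and 2075 for anti-PD1-treated *Aire*-/- mice. In the same order the spleen libraries held 2095, 2088, 2023 and 2393 cells. Depth differed by tissue. The median was 9889 to 12251.5 unique molecular identifiers (UMIs, each standing for 1 captured RNA molecule) per cell in tumors and 4413.5 to 4733 in spleens, over 23282801 to 38930018 UMIs per tumor library and 10927395 to 12618100 per spleen library. For *Aire* itself, tumors gave 0, 2, 1 and 0 UMIs and spleens gave 2, 5, 4 and 0, in the same order of conditions. It was near 0 in either genotype in these tissues, and tags near an end of the transcript need not lie in the deleted part, so these counts do not check the labels. Any pair of the 8 libraries shared 3 to 16 cell barcodes, and 0 shared barcodes had 3 or more of the 7 genes in both libraries.

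Cells that carried several of the 7 genes at once were a small population of tumors and were rarer in spleens. A UMI of 3 or more of the 7 genes was found in 65 tumor cells (2.22%) of isotype-treated *Aire*+/+ mice, 45 (2.04%) of anti-PD1-treated *Aire*+/+ mice, 68 (3.66%) of isotype-treated *Aire*-/- mice and 68 (3.28%) of anti-PD1-treated *Aire*-/- mice. In spleens the counts were 6 (0.286%), 5 (0.239%), 0 and 2 (0.0836%) in the same order, and 0 of 2023 cells allows a share of up to 0.148% when 3 counts are taken as the limit (0.182% by the exact interval used in the figure). Every tumor share was above every spleen share. The tumor share was 7.75 times the spleen share for isotype-treated *Aire*+/+ mice (95% interval 3.37 to 21.9), 8.51 times for anti-PD1-treated *Aire*+/+ mice (3.39 to 27.5) and 39.2 times for anti-PD1-treated *Aire*-/- mice (10.4 to 330.3). For isotype-treated *Aire*-/- mice, with a spleen count of 0, it was 24.7 times with that count set to a floor of 3. The exact interval of this ratio began at 19.55. All intervals in this text are exact and cover counting error only. Because tumor cells were deeper, each cell was also thinned to 2000 UMIs, which left out 0 tumor cells and 25 to 85 cells per spleen library. The tumor shares were then 1.37%, 1.22%, 2.15% and 2.17%, and the spleen shares 0.0969%, 0.150%, 0 and 0, again without overlap.

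**Figure D1:**
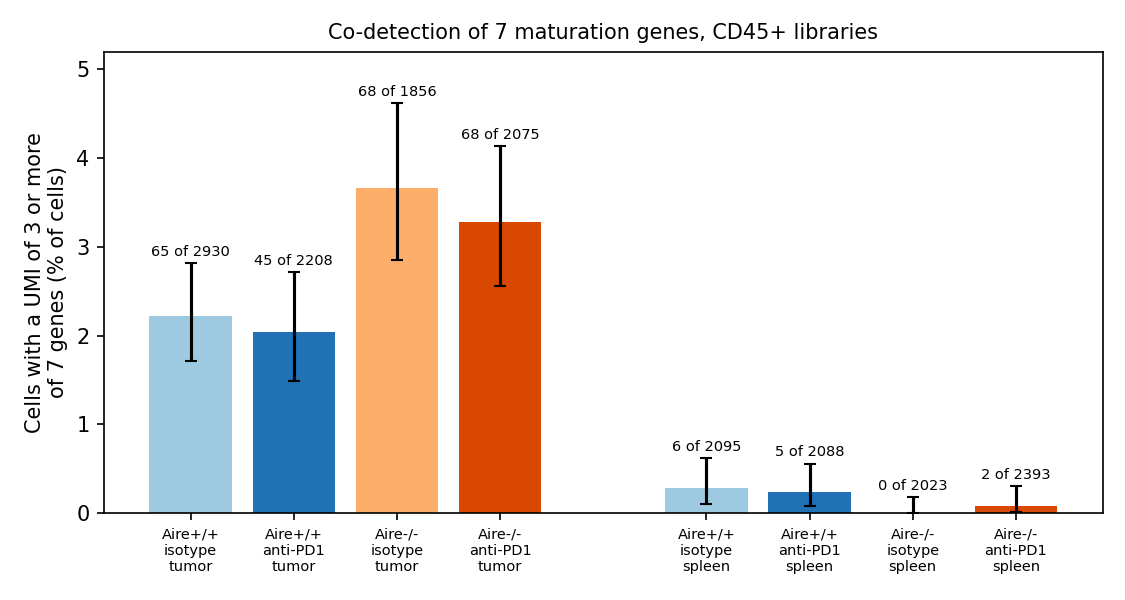
Share of CD45+ cells with a UMI of 3 or more of the 7 genes (y axis, percent of cells) in the 4 tumor and 4 spleen libraries, 1 bar per library with the exact 95% binomial interval and the count above it. The tumor bars lie between 2.04% and 3.66% and the spleen bars between 0 and 0.286%.

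The rule of 3 genes mattered in spleens, where pairs were common. A UMI of 2 or more of the 7 genes was found in 5.02%, 5.25%, 6.79% and 4.96% of tumor cells and in 7.26%, 7.33%, 6.77% and 8.27% of spleen cells, so the order of the tissues turned in 3 of the 4 conditions. Of the spleen cells with exactly 2 of the genes, 95.2% to 97.4% per library carried *Cd40* together with *Il4i1*. In tumors that pair made up 3.45% to 17.1% of such cells. Nearly all splenic cells with exactly this pair were of the B-like class, at 134 of 139, 138 of 141, 130 of 132 and 190 of 191 in the order of conditions above. Of the 13 spleen cells with 3 or more of the genes, 7 were B-like and 5 mature dendritic-like, the class described below.

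The tissues were then compared gene by gene on UMIs summed over all cells of a library, with condition as a term in edgeR's quasi-likelihood test. Of 12735 genes tested, 34.9% were higher in tumor and 36.9% lower at an adjusted p under 0.05. Of the 7 maturation genes 6 were higher and 1, *Il4i1*, lower. Such sums cannot tell fewer cells of a type from less RNA per cell. With most genes passing in one direction or the other, the number of genes called says little, and the sizes are given below.

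*Fscn1* reached 84, 119, 147 and 202 CPM (UMIs of a gene per 1e6 UMIs of its library) in the tumor libraries and 5.28, 7.05, 1.88 and 0.872 CPM in the spleen libraries, in the order of conditions above. All 4 tumors lay above all 4 spleens. The log2 difference was 5.44 (SE 0.57, edgeR adjusted p = 0.000189). Each SE given here was derived, as the size of the log2 difference divided by the square root of the test's F statistic. The calcium channel subunit gene *Cacnb3* gave 11.7, 11.1, 22.1 and 31.5 CPM in tumors and 0.742, 0.824, 0.358 and 0.238 CPM in spleens. It differed by 5.28 on the log2 scale (SE 0.42, edgeR adjusted p = 5.3e-05), again with no overlap.

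Of the chemokines, *Ccl22* gave 17.8, 25.4, 19.5 and 33.7 CPM in tumors. In spleens it had 2 UMIs in isotype-treated *Aire*+/+ mice and 0 in the other 3 libraries, and its edgeR adjusted p was 5.17e-06. The tumor level of isotype-treated *Aire*+/+ mice was 108 times that of spleen (29.8 to 893.4). Against a floor of 3 counts per library, the tumor level was 92.3-fold higher in anti-PD1-treated *Aire*+/+ mice. It was 72.6-fold higher in isotype-treated *Aire*-/- mice and 142-fold in anti-PD1-treated *Aire*-/- mice. The exact lower limits were 74.9, 58.8 and 114.9 in the same order. *Ccl17* gave 8.58, 6.40, 4.34 and 6.31 CPM in tumors and 0.659, 0.641, 0.358 and 0.555 CPM in spleens, a log2 difference of 3.75 (SE 0.19, edgeR adjusted p = 9.5e-06). The groups did not overlap for either chemokine. *Il12b* gave 6.01, 6.82, 41.6 and 31.5 CPM in tumors and 0 UMIs in each spleen library (edgeR adjusted p = 7.63e-05). Against the floor of 3 counts its tumor level was 24.3-fold, 24.8-fold, 155-fold and 133-fold higher. The exact lower limits were 19.6, 20, 125.8 and 107.6 in the same order.

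*Cd40* and *Il4i1* behaved differently, with high counts in spleen. *Cd40* gave 98.7, 107, 146 and 86.4 CPM in tumors and 83.2, 81.9, 81.1 and 96.8 CPM in spleens, and the groups overlapped, since the tumor of anti-PD1-treated *Aire*-/- mice lay below its own spleen. The log2 difference of 0.56 (SE 0.17, edgeR adjusted p = 0.0192) did not pass the threshold on thinned cells (0.31, adjusted p = 0.0879). It did not pass in edgeR either without the libraries of isotype-treated *Aire*+/+ mice (0.58, adjusted p = 0.0503), anti-PD1-treated *Aire*+/+ mice (0.54, 0.0676) or isotype-treated *Aire*-/- mice (0.39, 0.0691), each with 2 residual degrees of freedom in place of 3, and the first 2 differences were about as large as with all libraries. *Il4i1* gave 5.21, 6.08, 11.2 and 18.7 CPM in tumors and 38.6, 47.4, 38.5 and 51.5 CPM in spleens. It was lower in tumor by 2.02 on the log2 scale (SE 0.27, edgeR adjusted p = 0.000526), with every tumor below every spleen.

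Shares of cells followed the same split. *Fscn1* was detected in 3.90% to 5.44% of tumor cells and 0.376% to 0.766% of spleen cells, and after thinning in 2.32% to 2.75% and 0.0845% to 0.436%. *Cd40* was detected in 26.3% to 50.6% of tumor cells and 29.6% to 32.5% of spleen cells, and after thinning in 10.5% to 18.9% and 15.03% to 16.9%. *Il4i1* was found in 1.77% to 3.42% of tumor cells and 12.7% to 14.7% of spleen cells, thinned to 0.751% to 1.59% and 6.35% to 8.44%. Thus the *Cd40* shares of the tissues overlapped with and without thinning, and the *Il4i1* shares did not.

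Cells were grouped by clustering that left the 7 genes out, and classes were named from other marker genes. A class of 207 cells, 200 of them from tumors, carried all 12 of its markers in at least 10% of its tumor cells, led by the chemokine receptor gene *Ccr7*, and is called mature dendritic-like. It held 56, 32, 52 and 60 cells in the tumors and 2, 5, 0 and 0 cells in the spleens, in the order of conditions above. In tumors 192 of these 200 cells had 3 or more of the 7 genes, and they made up 78.0% of the 246 tumor cells that did. Another 37 such cells were other dendritic-like cells, named from general dendritic markers, which among dendritic cells stood out by macrophage genes such as *C1qa*.

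Most UMIs of 5 of the 7 genes in tumors came from the mature dendritic-like class, although it made up 1.45% to 2.89% of the cells of a tumor library. The class held 96.9% of the UMIs of *Fscn1*, 89.8% of *Cacnb3*, 88.3% of *Ccl22*, 81.8% of *Il12b* and 74.8% of *Il4i1*. Per library the share ran from 64.96% to 93.7% for *Il12b* and from 64.6% to 83.0% for *Il4i1*. Other dendritic-like cells held up to 27.35% of the *Il12b* UMIs of a library, and 3 type 1 dendritic-like cells held 217 of its 2189 UMIs. *Ccl17* was split, with 24.4% in the mature dendritic-like class and 67.2% in other dendritic-like cells, but the split varied by library. The mature dendritic-like class held 7.49% to 61.9% and the other 32.7% to 84.1%, and in anti-PD1-treated *Aire*-/- mice the mature class held more, 91 of 147 UMIs. *Cd40* was spread widely, with 9.07% there, 50.1% in macrophage-like and 26.0% in monocyte-like cells. Per library these *Cd40* shares ran from 6.33% to 17.2%, 26.4% to 61.4% and 20.8% to 36.6%, and in anti-PD1-treated *Aire*-/- mice monocyte-like cells held more than macrophage-like ones (735 against 530 UMIs). With the class taken from marker gates, described under the processing, it held 49.7% of the *Ccl17* UMIs and 14.8% of those of *Cd40*. In spleens B-like cells held 92.7% of the UMIs of *Cd40* and 97.6% of those of *Il4i1*, while T-like cells held 13 of the 25 *Cacnb3* UMIs.

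**Figure D2:**
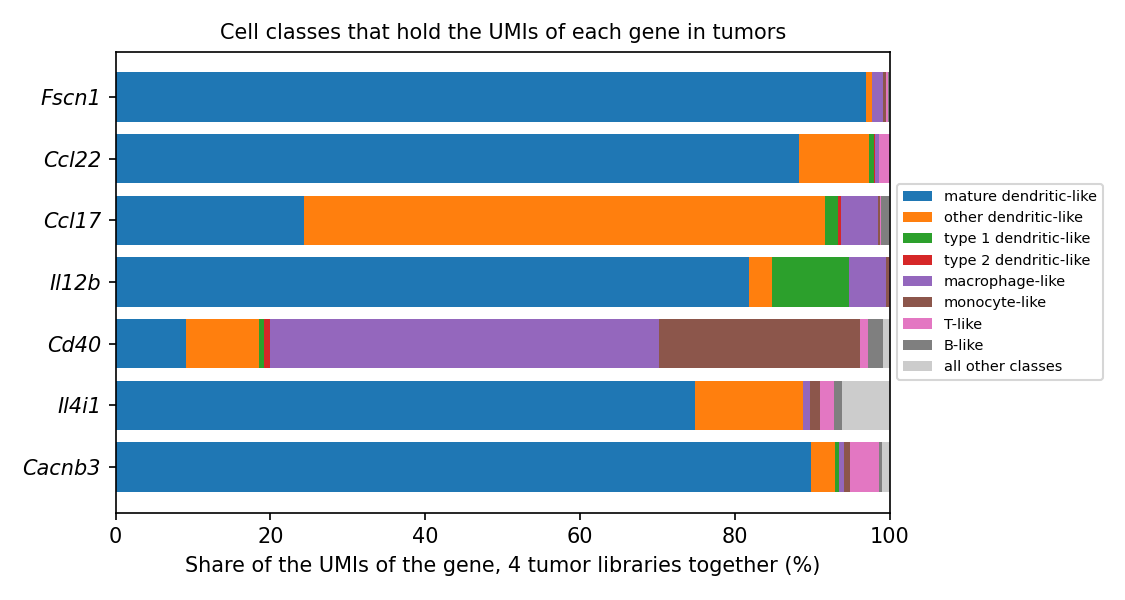
Share of the UMIs of each gene (x axis, percent, 4 tumor libraries together) that lay in each cell class, 1 bar per gene. *Fscn1* is nearly all in mature dendritic-like cells (96.9%), *Ccl17* over all 4 libraries mostly in other dendritic-like cells (67.2%, with 32.7% to 84.1% per library) and *Cd40* mostly in macrophage-like and monocyte-like cells.

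Free RNA can place UMIs in cells that do not express a gene, so the share in T-like tumor cells is given as a background. A UMI of *Fscn1* was found in 89.0% of mature dendritic-like tumor cells and 0.719% of T-like tumor cells, at median depths of 12276 and 8188.5 UMIs. The same pair of shares was 83.0% and 0.103% for *Ccl22*, 41.0% and 0.103% for *Il12b*, and 16.5% and 0.0513% for *Ccl17*. It was 83.5% and 3.03% for *Cd40*, 77.0% and 0.462% for *Il4i1*, and 95% and 3.34% for *Cacnb3*. Whether the T-like share of *Cacnb3* is background was not tested, and T-like cells also held most of its few UMIs in spleens. The 5.25% of macrophage-like tumor cells with a UMI of *Fscn1* carried 207 UMIs in 193 cells, close to 1 per cell. In B-like spleen cells, *Cd40* was found in 42.8% and *Il4i1* in 19.97%, against 1.30% and 0.355% of T-like spleen cells, at median depths of 4281 and 5514 UMIs.

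Cells with a UMI of 1 of the 7 genes more often had a UMI of another. Among tumor cells with *Il12b*, 74.1% to 82.4% per library also had *Fscn1* and 64.7% to 81.8% had *Ccl22*, against 2.64% to 4.66% and 1.51% to 2.40% of cells without it. Among cells with *Ccl17*, 26.5% to 55.6% had *Fscn1*. Over the cells of a tumor library, the Pearson correlation of log-scaled levels was 0.84 to 0.90 for *Fscn1* with *Cacnb3* and 0.63 to 0.79 for *Fscn1* with *Ccl22*. It was 0.05 to 0.21 for *Fscn1* with *Ccl17* and 0.15 to 0.26 for *Fscn1* with *Cd40*, so these 2 genes ran less with *Fscn1*, while *Ccl17* reached 0.21 to 0.56 with *Ccl22*. Cells of 1 library share depth and source, and these values are descriptions. By the lowest of the 4 library correlations with the mean of the 7 genes, the most similar of 10797 genes outside the 7 were *Tbc1d4* (0.76), *Mmp25* (0.69), *Cd200* (0.68), *Strip2* (0.67), *Mreg* (0.66), *Gm13546* (0.66), *Sema7a* (0.65), *Nudt17* (0.64), *Bcl2l14* (0.62), *Adcy6* (0.59), *Ramp3* (0.54) and *Rogdi* (0.54). For *Ccl17* alone *Socs2* ranked first (0.14), and for *Cd40* alone *Fam26f* did (0.41).

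Other genes of the program marked the same class. Against all other tumor cells, 2.08% of the 12190 genes with at least 50 UMIs over the 4 tumors were at least 2-fold higher in the mature dendritic-like class in each of the 4 tumors, and 1.93% at least 2-fold lower, with 50 CPM added to both sides. Of the 7 genes 6 were higher, the exception being *Ccl17*, and 26 of 36 other mature dendritic cell genes were higher, with *Ccr7* at 5859 CPM against 105 elsewhere. Of 20 genes of the NF-kB pathway, which drives maturation, 7 were higher, among them *Relb* (704 against 62.9 CPM). Of 11 genes for antigen presentation on MHC class II, 0 passed in either direction. Of 32 ligands, receptors and partners of the 7 genes, some of them below 50 UMIs and so not comparable with the shares of all genes, 3 were higher (*Ccr7*, *Traf1* and the calcium channel gene *Cacna1s*) and 3 lower (*Ccl2*, *Ccl3* and *Ccl4*). The class was named partly from genes of these lists, which are therefore no independent support for its name.

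Several partners of the encoded proteins were found mostly in other cells or in the other tissue. *Il12a*, the p35 chain that joins p40 in IL-12, gave 0.283 to 0.816 CPM in tumors and 11 to 13.5 CPM in spleens, and had 0 UMIs in the mature dendritic-like tumor cells. *Il23a*, the p19 chain of IL-23, gave 3.67, 3.16, 2.60 and 1.72 CPM in tumors and 0 UMIs in spleens. The gene for the CD40 ligand, *Cd40lg*, gave 1.52, 2.12, 2.64 and 9.23 CPM in tumors and 8.49, 11.4, 18.1 and 19.4 CPM in spleens. The CCL22 and CCL17 receptor gene *Ccr4* was found in 8.47% of 437 regulatory T-like cells in tumors and 15.5% of 58 in spleens, and in 36 of 1434 and 2 of 23 CD8 T-like cells. Most *Ccr4* UMIs of spleens, 137 of 157, lay in T-like cells outside these clusters (89 of 1611 cells). In the edgeR test of tissue, 12 of the 24 tested partner genes were higher in tumor (50%) and 7 lower (29.2%), against 34.9% and 36.9% of all genes (median log2 difference 0.83, against −0.05). The shares were 69.4% higher and 8.33% lower of 36 other mature dendritic cell genes (median 1.88), 50% and 10% of 20 NF-kB genes (0.34), and 27.3% and 45.5% of 11 MHC class II genes (−0.24).

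By condition, cells with 3 or more of the 7 genes took a larger share of all cells in the tumors of *Aire*-/- mice, though not under every rule. The *Aire*-/- share was 1.65 times the *Aire*+/+ share under isotype (1.16 to 2.36) and 1.61 times under anti-PD1 (1.09 to 2.40). With 2 or more genes the anti-PD1 ratio turned to 0.945 (0.718 to 1.24). On thinned cells the isotype interval held 1 (1.58, 0.993 to 2.51), and so did the anti-PD1 interval without the highest 5% of Scrublet scores (1.505, 0.992 to 2.30). The anti-PD1 share was 0.919 times the isotype share in *Aire*+/+ mice (0.614 to 1.36) and 0.895 times in *Aire*-/- mice (0.630 to 1.27), and both intervals held 1. With 2 or more genes the ratio in *Aire*-/- mice was 0.731 (0.558 to 0.956), an interval below 1. Macrophage-like cells made up 54.4%, 50.5%, 37.0% and 13.4% of the tumor libraries in the order of conditions above. With macrophage-like cells left out of both the numerator and the denominator, the *Aire*-/- over *Aire*+/+ ratio was 1.22 under isotype (0.846 to 1.75) and 0.940 with anti-PD1 (0.634 to 1.41), so the second ratio turned. The anti-PD1 over isotype ratio in *Aire*-/- mice was then 0.671 (0.471 to 0.956). The mature class defined above, counted in place of cells with 3 or more genes, was 1.47 times as frequent among all cells in *Aire*-/- as in *Aire*+/+ mice under isotype (0.985 to 2.18) and 1.995 times with anti-PD1 (1.28 to 3.17). Among dendritic-like cells alone these ratios were 1.13 (0.758 to 1.67) and 1.80 (1.16 to 2.86). For anti-PD1 over isotype the class gave 0.758 among all cells (0.475 to 1.19) and 0.740 among dendritic-like cells (0.464 to 1.16) in *Aire*+/+ mice, and 1.03 (0.7 to 1.53) and 1.18 (0.803 to 1.75) in *Aire*-/- mice, and all 4 intervals held 1.

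In sums over all tumor cells, a 1.5-fold rule was used for genes with at least 50 UMIs in a pair of libraries. For *Aire*-/- over *Aire*+/+ under isotype, 4 of the 7 genes were higher (*Fscn1*, *Il12b*, *Il4i1* and *Cacnb3*; 7.16% of all genes) and *Ccl17* was lower (3.52%). Under anti-PD1 the same 4 were higher (15.6%) and 0 lower (10.9%). For anti-PD1 over isotype, 0 were higher (3.44%) or lower (1.22%) in *Aire*+/+ mice. In *Aire*-/- mice *Ccl22* and *Il4i1* were higher (15.3%) and *Cd40* lower (10.1%). The log2 ratio of *Il12b* for *Aire*-/- over *Aire*+/+ was 2.79 under isotype (interval 2.585 to 3.002) and 2.21 (1.98 to 2.44) with anti-PD1. A single cell held 22.65% to 53.5% of its UMIs per tumor, and without the cell richest in it in each library these ratios were 2.65 (2.41 to 2.89) and 1.60 (1.31 to 1.90), the second below the 1.74 of *Il4i1* on the same rule. Such sums also move with the share of each class, and how much of these ratios comes from it was not tested.

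Levels within the mature dendritic-like class do not depend on its share of the library. *Il12b* gave 246, 446, 1084 and 776 CPM in the order of conditions above, higher in both *Aire*-/- tumors than in both *Aire*+/+ tumors. The *Aire*-/- over *Aire*+/+ log2 ratio was 2.14 under isotype (1.89 to 2.40) and 0.80 with anti-PD1 (0.56 to 1.05). Single cells carried much of this. The cell with the most *Il12b* UMIs held 39.8% of them in isotype-treated *Aire*-/- mice and 57.1% in anti-PD1-treated *Aire*-/- mice, and without the top cell of each library the ratios were 1.83 (1.53 to 2.13) and 0.14 (−0.17 to 0.46). The share of cells with an *Il12b* UMI was 33.9%, 43.8%, 40.4% and 46.7%, with overlapping intervals.

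*Ccl22* gave 995, 1674, 570.1 and 771 CPM, lower in both *Aire*-/- tumors, with *Aire*-/- over *Aire*+/+ log2 ratios of −0.80 (−0.99 to −0.62) and −1.12 (−1.27 to −0.96). The first was −0.21 with classes from marker gates and −0.40 on thinned cells, short of 1.5-fold in both. *Ccl17* gave 40.4, 138, 23.8 and 103 CPM, higher in both anti-PD1 tumors, by 1.78 on the log2 scale in *Aire*+/+ mice (1.07 to 2.52) and 2.11 in *Aire*-/- mice (1.35 to 2.95). It rests on few cells, since 5 to 11 cells per tumor carried it and 1 cell held 52.9% and 52.8% of its UMIs in the *Aire*-/- tumors. With classes taken from marker gates both ratios turned, to −1.71 and −0.44. *Fscn1* gave 5113, 8198, 4945 and 5212 CPM and stood apart in anti-PD1-treated *Aire*+/+ mice. *Cacnb3* was nearly level at 688, 715, 685 and 727 CPM, and its 4 log2 ratios, −0.01 to 0.09, all had intervals that held 0. *Il4i1* gave 236, 284, 322 and 369 CPM and *Cd40* gave 393, 516, 479 and 390.4 CPM.

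**Figure D3:**
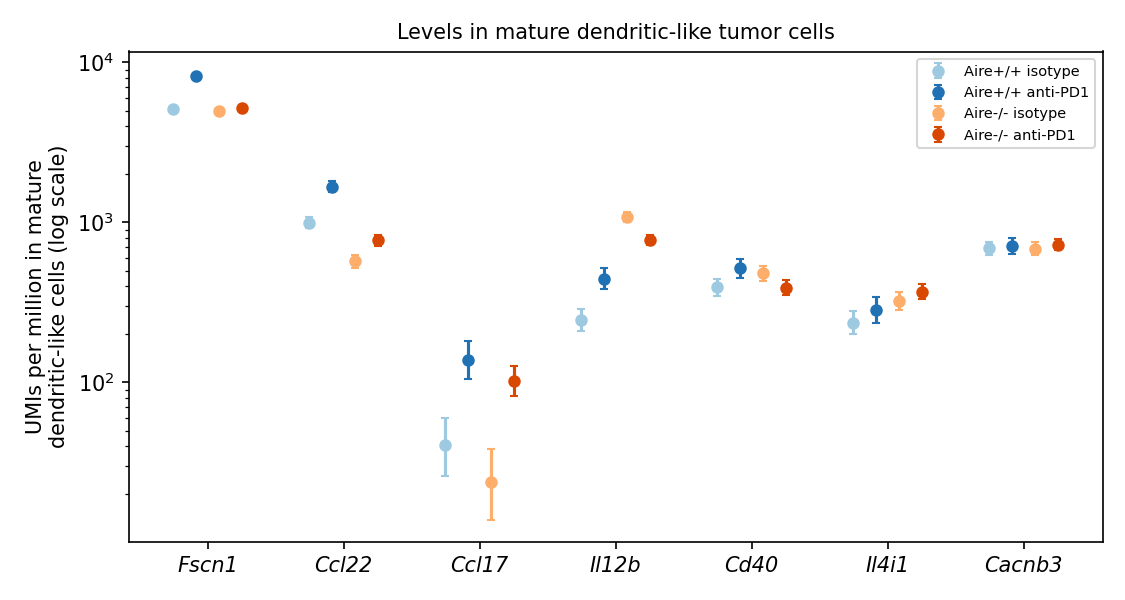
Level of each gene in mature dendritic-like tumor cells (y axis, CPM, log scale), 1 point per tumor library with the exact 95% Poisson interval. *Il12b* runs from 246 to 1084 CPM with both *Aire*-/- libraries on top, and *Cacnb3* stays between 685 and 727 CPM.

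Read against all genes of the class by the 1.5-fold rule, *Aire*-/- over *Aire*+/+ under isotype gave 1 of 6 measured genes higher (*Il12b*; 6.03% of genes) and 1 lower (*Ccl22*; 7.85%). Under anti-PD1 it gave 1 of 7 higher (*Il12b*; 15.2%) and 2 lower (*Fscn1* and *Ccl22*; 4.98%). For anti-PD1 over isotype, 4 of 7 were higher in *Aire*+/+ mice (*Fscn1*, *Ccl22*, *Ccl17* and *Il12b*; 4.55%) and 0 lower (12.5%), and in *Aire*-/- mice 1 was higher (*Ccl17*; 7.46%) and 0 lower (4.83%). With classes from marker gates the *Aire*+/+ count was 1 higher and 1 lower, with *Ccl17* at −1.71 and *Il12b* at −0.10, and the *Aire*-/- count was 0 higher and 1 lower. The shares of all genes above belong to the clustered class and not to the gated cells. Markers of other cells differed between libraries. Type 2 dendritic markers summed to 275, 65.4, 256 and 85.8 CPM in the class, lower in both anti-PD1 tumors, and monocyte markers to 603, 90.6, 237 and 349 CPM. The type 1 dendritic markers *Clec9a* (4.85, 7.55, 25.2 and 24.8 CPM), *Wdfy4* (11.3, 2.52, 25.2 and 29.3 CPM), *Gcsam* and *Cadm1* were higher in both *Aire*-/- tumors. *Irf8* (1590, 2019, 1726 and 1631 CPM), *Naaa* and *Xcr1* of the same list were not. In mature dendritic-like cells of anti-PD1-treated *Aire*-/- mice, 4 measured T cell markers summed to 182 CPM, led by *Cd3g*, against 0 to 4.85 CPM in the other tumors, and 5 NK markers summed to 179 CPM against 0 to 76.0. Few cells carried much of these sums, with 56 UMIs of *Cd3g* in 5 of the 200 cells, 153 of *Gzma* in 4 and 107 of the type 2 marker *Cd209a* in 3, while the type 2 marker *Sirpa* was nearly level (58.2, 55.4, 68.6 and 56.4 CPM). The part of any of these in the results was not tested.

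The start regions of *Fscn1* and *Ccl22*, with 96.9% and 88.3% of their tumor UMIs in mature dendritic-like cells, are shown because these genes were detected together. RefSeq promoters of 300 bases (build GRCm38.p6) were given for 6 of the 7 genes, 7 regions in all, with 2 for *Cacnb3*. The letters GGG and CC with any 5 bases between them, a loose form of the site bound by NF-kB, were searched on both strands, and matches may overlap. They were present in 5 of these 7 regions, those of *Fscn1*, *Ccl22*, *Il4i1* and both of *Cacnb3*, and in 50.8% of all 32851 promoters of that length. A match is a description of the letters and not a bound site. Capitals mark the matches.
Fscn1, chr5:142960105-142960404, + strand: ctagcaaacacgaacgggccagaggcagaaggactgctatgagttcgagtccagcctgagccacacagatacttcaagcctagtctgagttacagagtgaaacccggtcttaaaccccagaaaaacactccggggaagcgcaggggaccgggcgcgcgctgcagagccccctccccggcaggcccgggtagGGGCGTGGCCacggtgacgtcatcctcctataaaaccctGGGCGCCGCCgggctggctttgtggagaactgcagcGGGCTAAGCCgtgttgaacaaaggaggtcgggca
Ccl22, chr8:94745434-94745733, + strand: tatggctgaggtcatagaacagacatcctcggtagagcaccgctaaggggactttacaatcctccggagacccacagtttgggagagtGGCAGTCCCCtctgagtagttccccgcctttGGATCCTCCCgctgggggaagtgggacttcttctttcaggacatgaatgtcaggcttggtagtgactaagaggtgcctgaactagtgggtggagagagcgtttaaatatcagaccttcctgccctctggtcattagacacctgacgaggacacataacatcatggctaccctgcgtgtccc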

How the data were processed

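RNA was measured in CD45+ cells of 8 libraries. The study's single-cell methods give a Chromium 3′ kit, while its T cell receptor methods name a 5′ kit, also for sorted CD45+ cells. The authors deposited UMI counts per gene and cell barcode (Cell Ranger per the study's methods, build GRCm38 per the submitters' notes). These are unnormalized and hold called cells alone. Cells with fewer than 200 genes or over 20% mitochondrial UMIs were removed (1 to 29 per library). The 7 genes and the gene lists were chosen with earlier results of these data known. Clusters used 1000 variable genes without the 7, 15 components, 30 neighbours and Leiden resolution 0.4 (leidenalg 0.10.2) after a linear fit had removed cell-cycle scores, mitochondrial share and UMI number, and dendritic clusters were clustered again. Scrublet (scanpy 1.11.5) marked 58 of 17668 cells (0.328%) and so has not worked, and doublets were kept. Named genes were the 7, list genes with extreme values and those ranked by correlation. Tissues were compared with edgeR 4.0.16 (DESeq2 1.42.0 as an alternative), with Benjamini-Hochberg adjustment and 3 residual degrees of freedom. Whether pools differ as mice do is unknown, and no pool has a replicate. The p-values thus measure how the difference between tumor and spleen varied over the conditions, and not the spread between replicate pools or mice. Conditions have 1 library each and no test. Shares have Clopper-Pearson, levels Poisson and ratios conditional binomial 95% intervals. Functions were tested on simulated data. Alternatives covered cell filters, thinning, detection rules, doublets, clustering, marker gates, scaling and left-out libraries.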

Additional observations from a re-analysis of the deposited data

Results flagged for a closer look

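Cells with 3 or more of the 7 genes also appeared in the libraries sorted for CD8, which the Results above do not use. In tumors there were 23 of 2684 cells in isotype-treated *Aire*+/+ mice, 16 of 2221 in anti-PD1-treated *Aire*+/+ mice, 7 of 1858 in isotype-treated *Aire*-/- mice and 2 of 2212 in anti-PD1-treated *Aire*-/- mice. In spleens there were 11 of 2898, 1 of 2944, 1 of 2339 and 5 of 2629 in the same order. The tumor shares (0.857%, 0.720%, 0.377% and 0.0904%) were thus lower in *Aire*-/- mice, opposite to the order in CD45+ cells. The interval of isotype-treated *Aire*-/- mice (0.152% to 0.775%) overlapped those of isotype-treated (0.544% to 1.28%) and anti-PD1-treated *Aire*+/+ mice (0.412% to 1.17%). Over all 8 CD8-sorted libraries there were 66 such cells, of which 62 had a UMI of *Ccr7*, 60 of *H2-Ab1*, 48 of *Cd8a* and 9 of a CD3 gene. How they came into the sort was not tested.

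In mature dendritic-like tumor cells the anti-PD1 over isotype log2 ratio had opposite signs in the 2 genotypes for *Il12b*, 0.86 in *Aire*+/+ mice and −0.48 in *Aire*-/- mice, and for *Cd40*, 0.39 and −0.30. For *Cd40* the *Aire*-/- over *Aire*+/+ log2 ratio was 0.29 under isotype and −0.40 under anti-PD1. Each counting interval lay on 1 side of 0. With classes from marker gates the *Il12b* ratio in *Aire*+/+ mice was −0.10. Without the cell richest in *Cd40* in each library, 3 of the 4 *Cd40* intervals held 0, at 0.20 (−0.11 to 0.51) and −0.23 (−0.4655 to 0.00126) for anti-PD1 over isotype and −0.17 (−0.45 to 0.12) for *Aire*-/- over *Aire*+/+ under anti-PD1. There is 1 library per condition, and the differences between these ratios were not tested.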

How the results depend on the processing

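Of 559 values recomputed under alternatives, 443 stayed within counting error, within 1.5 times a count or on their side of the threshold, 101 moved further and 4 no longer passed the threshold. Another 11, whose interval had lain on 1 side of no difference, changed direction. Values whose interval held no difference also crossed it within that error, among them anti-PD1 over isotype for cells with several genes, 1.05 in *Aire*+/+ mice (2 genes) and 1.006 in *Aire*-/- mice (thinned). The cause was not tested unless the alternative's construction gives it. Conditions are in the order isotype and anti-PD1 in *Aire*+/+, then in *Aire*-/- mice.

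Thinning to 2000 UMIs lowered the share of cells with 3 or more genes to 1.37%, 1.22%, 2.15% and 2.17% in tumors, and to 0.0969% and 0% in spleens of the first and last condition. The third tissue ratio, against the floor of 3 counts, was then 14.3, with an exact lower limit of 11.1. Asking for 2 genes, which admits more cells, gave 5.02%, 5.25%, 6.79% and 4.96% in tumors and 7.26%, 7.33%, 6.77% and 8.27% in spleens. The tissue ratios were then 0.691, 0.717, 1.002 and 0.600, and the *Aire*-/- over *Aire*+/+ ratio under anti-PD1 was 0.945. Asking for 4 genes gave 2.86% in the third tumor, and 0.0477%, 0.0479% and 0% in the first, second and last spleens. The tissue ratios of the first 3 conditions were then 37.9, 31.2 and, against the floor of 3 counts, 19.3, the last with an exact lower limit of 15.1. Counting a gene from 2 UMIs gave 0.0955% and 0% in the first and last spleens, and so did leaving out *Cd40*. Leaving macrophage-like cells out turned the *Aire*-/- over *Aire*+/+ ratio under anti-PD1 to 0.940.

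In mature dendritic-like cells the number of genes past 1.5-fold moved under 5 alternatives. The shares of all genes given in the Results belong to the main setting, so the counts under alternatives are not set against all genes. Marker gates took cells with a UMI of *Flt3*, *Zbtb46* or *Ccr7* and none of B cell, T cell or *C1q* genes. They held 623 tumor cells and 79.0% of the *Fscn1* UMIs, so they add other cells to the class and miss part of it. They gave 3 higher and 0 lower for *Aire*-/- over *Aire*+/+ under isotype, 3 and 1 under anti-PD1, and for anti-PD1 over isotype 1 and 1 in *Aire*+/+ and 0 and 1 in *Aire*-/- mice. Thinning gave 2 higher and 0 lower for *Aire*-/- over *Aire*+/+ under isotype, 0 higher under anti-PD1, and 2 higher for anti-PD1 over isotype in *Aire*-/- mice. With 2000 genes and 30 components 1 was lower for *Aire*-/- over *Aire*+/+ under anti-PD1 and 1 lower for anti-PD1 over isotype in *Aire*-/- mice. Of the alternatives chosen after seeing the data, leaving out the highest 5% of Scrublet scores gave 1 lower for *Aire*-/- over *Aire*+/+ under anti-PD1. Leaving out the top cell of each gene gave 0 higher there and 1 lower for anti-PD1 over isotype in *Aire*-/- mice. By gene, gates turned the log2 ratio of *Cd40* for *Aire*-/- over *Aire*+/+ under anti-PD1 to 0.0217, of *Ccl17* for anti-PD1 over isotype to −1.71 in *Aire*+/+ and −0.44 in *Aire*-/- mice, and of *Il12b* to −0.10 in *Aire*+/+ mice. Thinning turned *Ccl22* for anti-PD1 over isotype in *Aire*-/- mice to −0.0596. In sums over all tumor cells, leaving out the top cell of each gene, also chosen after seeing the data, turned *Ccl17* for anti-PD1 over isotype in *Aire*+/+ mice to 0.0803 and gave 2 lower in *Aire*-/- mice in place of 1.

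In the edgeR test the 6 genes higher in tumor became 5 on thinned cells and 5 to 6 when each condition was left out, with 1 lower throughout; the gene lost was *Cd40* (adjusted p 0.00075 to 0.0879 over its alternatives). Conditions could not be compared in pairs of replicates, because each has 1 library per tissue, and they were compared without a test. An additive fit of genotype and treatment, which leaves 1 residual degree of freedom in the tumors, was not made. The tissue test does pair the tumor and spleen of a condition through its condition term, and without that term 6 genes were again higher and 1 lower. Shares of cells with *Ccl17* or *Il12b*, and all values of splenic mature dendritic-like cells, rest on few cells, and depth limits detection there.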

Other observations

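The 7 splenic mature dendritic-like cells, all from *Aire*+/+ mice, had 79 UMIs of *Fscn1*, 18 of *Il4i1*, 10 of *Cacnb3* and 4 of *Cd40*, and 0 of *Ccl22*, *Ccl17* and *Il12b*. They were found at 2 of 2095 and 5 of 2088 cells, and 0 of 2023 and 0 of 2393 cells in *Aire*-/- mice. In the 200 tumor cells of the class *Ccl22* was found in 83.0%.

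*Cacna1s*, a pore subunit gene of a muscle calcium channel, was detected in 47.5% of mature dendritic-like tumor cells, at 85.7, 116, 85.4 and 94.8 CPM in the order of conditions above, against 1.35 CPM in other tumor cells. Its summed level did not pass the edgeR test of tissue (log2 difference −0.23, adjusted p = 0.414). *Cacnb1* and *Cacnb4*, other beta subunit genes, were found in 13.5% and 8.5% of the mature dendritic-like tumor cells, against 95% for *Cacnb3*.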
